A study of Mus musculus with 2 samples.

Results

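Cycling germ nuclei of the mouse fetal testis were taken as the 250 germ nuclei with the highest level of proliferation genes, out of 700 germ nuclei and 9833 barcodes in all. Nuclei with 2000 to 50000 RNA molecules (UMIs), under 10% mitochondrial UMIs and more than 500 counts at open chromatin peaks were kept, which left 7492. These were ranked by the UMI share of 9 germ cell genes (*Ddx4*, *Dazl*, *Dnd1*, *Mael*, *Sycp1*, *Tex14*, *Ankrd31*, *Morc1* and *Stk31*), and the top 700 were then ranked by the UMI share of 7 proliferation genes (*Mki67*, *Top2a*, *Aspm*, *Knl1*, *Neil3*, *Ckap2l* and *Cenpf*). The highest 250 are the members, and the other 450 are called the other germ nuclei. The members were thus chosen by RNA values of the same nuclei, so their RNA is given as a description, and their open chromatin is a readout that the ranking did not use. The testes came from E14.5 embryos carrying *Nr5a1-cre* and *Rosa-tdTomato*, from a cross of homozygous *Nr5a1-cre* mice with a homozygous *Rosa-tdTomato* female, and all nuclei share this genotype. *Nr5a1-cre* is active in steroidogenic and supporting lineages of the gonad, not in germ cells. Whole testes were frozen, and RNA and open chromatin (ATAC, in which a transposase cuts accessible DNA) were read from the same nuclei by 10x multiome, with 1 RNA library and 1 ATAC library. The sources used here do not state the number of pooled embryos. With 1 library per assay no difference could be tested between animals, and the 95% intervals given below cover counting error only.

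Germ cells that reach the fetal testis first proliferate, and then male germ cells leave the cell cycle and stay in mitotic arrest until after birth. During this period they silence part of the pluripotency programme and switch on a small RNA pathway, the piRNA pathway, which guides DNA methylation to retrotransposons. Cells in cycle copy their DNA in S phase with the replication machinery, much of it under the control of E2F transcription factors. In G2 and mitosis they use spindle motors, kinetochore proteins and mitotic kinases, whose promoters often hold CCAAT boxes and an element called CHR.

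Promoters of cell cycle genes with high member-to-other ratios are printed here because their elements recur in the lists described below. Each sequence is the 250 bases before the transcription start, from RefSeq on GRCm38.p6, read 5′ to 3′ on the gene's own strand. Capitals mark a CCAAT box (CCAAT), a CHR (TTTGAA) or an E2F element (TTTCCCGC, TTTGGCGC, TTTCGCGC or TTTGCCGC) on either strand, and no E2F string holds CCAAT or ATTGG. *Ube2c* (chr2:164769679-164769928, plus strand), *Aurka* (chr2:172370571-172370820, minus strand) and *Kif23* (chr9:61946800-61947049, minus strand) act in mitosis, as a ubiquitin-conjugating enzyme, a spindle kinase and a midzone motor. *Mcm6* (chr1:128359706-128359955, minus strand) is a subunit of the replicative helicase.
Ube2c: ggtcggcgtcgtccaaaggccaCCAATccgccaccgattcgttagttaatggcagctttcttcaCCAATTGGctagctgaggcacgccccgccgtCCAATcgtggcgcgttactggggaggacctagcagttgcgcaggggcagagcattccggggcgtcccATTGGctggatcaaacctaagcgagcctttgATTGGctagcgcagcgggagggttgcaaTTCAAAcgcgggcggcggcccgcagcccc
Aurka: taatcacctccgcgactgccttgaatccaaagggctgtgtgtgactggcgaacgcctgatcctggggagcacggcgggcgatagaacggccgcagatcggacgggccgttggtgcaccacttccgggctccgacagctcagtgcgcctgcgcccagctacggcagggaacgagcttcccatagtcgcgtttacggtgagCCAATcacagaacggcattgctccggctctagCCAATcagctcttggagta
Kif23: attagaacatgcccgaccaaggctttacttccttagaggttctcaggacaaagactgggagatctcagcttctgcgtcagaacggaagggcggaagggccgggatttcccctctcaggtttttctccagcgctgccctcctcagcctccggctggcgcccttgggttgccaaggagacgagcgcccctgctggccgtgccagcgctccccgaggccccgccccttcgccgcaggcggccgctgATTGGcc
Mcm6: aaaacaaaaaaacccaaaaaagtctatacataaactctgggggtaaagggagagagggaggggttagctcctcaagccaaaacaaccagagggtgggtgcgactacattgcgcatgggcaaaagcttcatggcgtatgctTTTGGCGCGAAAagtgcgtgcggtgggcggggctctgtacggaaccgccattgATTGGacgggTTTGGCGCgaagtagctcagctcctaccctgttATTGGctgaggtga

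The *Ube2c* stretch held 6 CCAAT boxes and 1 CHR, which ended 24 bases before the start, and a pair of the CCAAT boxes overlap on opposite strands. *Mcm6* held 3 E2F elements, of which a pair overlap on opposite strands, and 2 CCAAT boxes. Of the 50 genes of a standard G2/M list that were not used in the ranking, 43 had a promoter in the RefSeq table, and 16 of these (37.2%) held a CHR. The share was 10.3% over the 7459 genes with a promoter and at least 100 UMIs in the germ nuclei, ranking genes included, and 14.9% over all 20267 promoters. E2F elements were in 9 of 31 S-phase promoters (29.0%) and in 2 of the 43 G2/M promoters (4.65%), against 3.74% over those 7459 genes and 2.21% of all promoters. CCAAT boxes were in 72.1% of the G2/M and 67.7% of the S-phase promoters, against 35.2% of all. A CCAAT box shared a promoter with a CHR in 14 of the 43 G2/M promoters (32.6%), against 4.06% over those 7459 genes and 5.33% of all promoters. In the piRNA list 1 of 17 promoters held a CHR and 0 held an E2F element. The stretch of *Nusap1*, a further gene of the G2/M list, held none of the elements and is not printed, and those of *Uhrf1* and *Rad51ap1* held 1 and 2 CCAAT boxes. These matches describe letters in a fixed window and not binding.

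The ranking formed a slope with no gap at the limit of the 250 members. The share of the 7 ranking genes was 6959 CPM (counts-per-million of the nucleus's UMIs) in the first nucleus, 3022 at rank 50, 1474 at rank 100 and 961 at rank 200. It was 840.8 CPM in the last member and 838.8 in the first nucleus outside, and 33 members and 51 of the others lay within 10% of the last member's value. The germ share was as close at its own limit, with 5119.6 CPM at rank 700 and 5118.4 at rank 701, and it was 2985 at rank 1000 and 383 at rank 1200. The label was checked against *Mki67* and *Top2a*, a nuclear proliferation antigen and the topoisomerase that untangles chromosomes, which both belong to the ranking genes and are therefore given as a description. Pooled *Mki67* was 342 CPM in the members and 43.5 CPM in the other germ nuclei. Its level in ranks 1 to 50, 51 to 100, 101 to 150, 151 to 200 and 201 to 250 was 819, 425, 139, 99.4 and 73.1 CPM, and in ranks 251 to 350 it was 52.4 CPM. *Top2a* was 884 and 447 CPM in the first and second of these bands and 68.9, 71.4 and 62.2 CPM in the next ones, against 53.6 CPM in ranks 251 to 350. The high levels thus stood in the first 100 nuclei, and ranks 101 to 250 were nearer to the nuclei below them. These rank bands were chosen after the values were seen.

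No UMI of *Mki67* or *Top2a* was read in 45 of the 250 members (18%) and in 162 of the 450 others (36%). Both genes were read in all 50 nuclei of ranks 1 to 50, in 36 of the next 50, and in 37 of the 150 nuclei of ranks 101 to 250 (24.7%). *Cenpf*, a large kinetochore-associated protein, gave 50.3% of the ranking UMIs of the members, 65.1% in ranks 101 to 250 and 57.9% in the other germ nuclei. In proliferating nuclei of other cell types it gave 11.4%. At least 50% of a nucleus's ranking UMIs came from *Cenpf* in 163 members, 126 of them below rank 100. In the other germ nuclei both *Mki67* and *Top2a* were read in 16%. On that share ranks 101 to 250 lay between the first 100 nuclei and the others, on the share of *Cenpf* they lay above both, and they are called here by their rank.

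**Figure D1:**
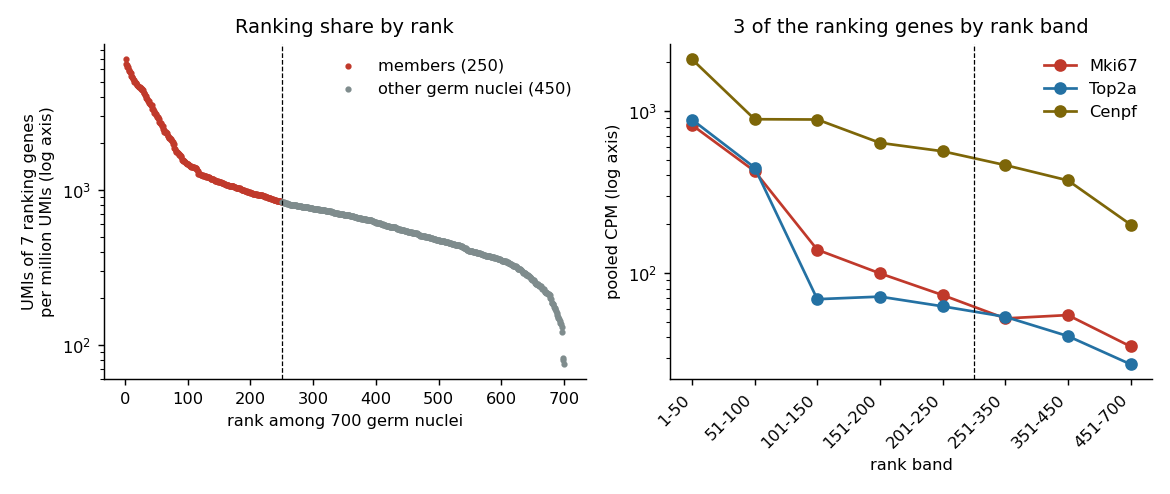
Left, CPM of the 7 ranking genes in each of 700 germ nuclei (log axis) by rank, with the limit of the 250 members as a dashed line. Right, pooled CPM (log axis) of *Mki67*, *Top2a* and *Cenpf* in 8 rank bands. *Top2a* is at 447 CPM in ranks 51 to 100 and 68.9 CPM in ranks 101 to 150, and *Cenpf* is at 890 and 886 CPM in the same bands.

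Genes that placed the nuclei among the 700 are given as a description, since the germ share that also set the somatic group apart was read from them. Of these *Ddx4*, a germline RNA helicase, was at 624 CPM in the members, 560 CPM in the other germ nuclei and 15.3 CPM in 1830 cycling somatic nuclei, which are the kept nuclei outside the first 1000 by germ share whose share of ranking genes reached that of the last member. *Dazl*, a germ cell RNA-binding protein, was at 998, 875 and 28.8 CPM. *Dppa4*, a gene of germ and pluripotent cells outside the ranking, was at 199, 195 and 5.10 CPM. After each nucleus was thinned to 2000 UMIs, *Dazl* was read in 84.4% of the members (79.3 to 88.7%), in 81.8% of the others and in 2.95% of the cycling somatic nuclei. Unthinned shares were 99.6%, 100% and 10.2%. Whether free RNA, or germ nuclei past rank 1000, gave the somatic share was not tested. Median depth was 14256 UMIs in the members (2299 to 43686), 15408.5 in the others and 9745 in the cycling somatic nuclei. Summed over 48 markers of the other testis cell types, the level was 614 CPM in the members, 692 CPM in the others and 4067 CPM in the cycling somatic nuclei. Of these markers 2 were at 0 in the members, both of immune cells (*Ptprc* and *Adgre1*). Per nucleus the summed level ran from 0 to 2729 CPM in the members and from 0 to 5605 CPM in the others. It was 544 to 705 CPM over the rank bands of the members, and its part in the differences below was not tested. Haemoglobin and other erythroid genes were at 293 CPM in the members and 152 CPM in the others, but 837 of the members' 1165 erythroid UMIs came from 1 nucleus at rank 118. Without the highest nucleus of each group the levels were 82.8 and 76.7 CPM. Of the members, 21 (8.40%) passed the automatic doublet threshold of Scrublet, a tool that scores nuclei against simulated doublets, as did 57 of the others (12.7%). By rank, 13 of these members lay in ranks 1 to 100 (13%) and 8 in ranks 101 to 250 (5.33%).

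Lists of cell cycle genes without the ranking genes were higher in the members, most of all in the first 100. Over the 43 genes of a standard S-phase list the pooled level was 3553 CPM in the members and 2227 CPM in the others, a ratio of 1.60 (1.56 to 1.63). Over the 50 G2/M genes it was 5438 and 3724 CPM, a ratio of 1.46 (1.44 to 1.49). In ranks 1 to 100 alone the ratios to the other germ nuclei were 2.12 and 1.98, and in ranks 101 to 250 they were 1.16 (1.12 to 1.19) and 1.03 (1.003 to 1.05). These lists were read from the RNA that also ranked the nuclei, so they describe the members and are no test of them.

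Of 9485 genes with at least 100 UMIs over both groups, the 16 ranking genes left out, 556 (5.86%) were at least 1.5-fold higher in the members and 810 (8.54%) at least 1.5-fold lower. These counts moved with the ranking, to 344 higher and 225 lower when *Cenpf* was left out of it and to 331 and 522 on thinned counts. In ranks 1 to 100 these shares were 10.6% and 13.8% of 8845 genes, and in ranks 101 to 250 they were 2.69% and 7.45% of 8949 genes. Against the 5.86% over the members, 19 of the 35 S-phase genes compared and 27 of the 45 G2/M genes compared were at least 1.5-fold higher, and none was 1.5-fold lower. The median log2 ratio was 0.71 for the S-phase list and 0.72 for the G2/M list, against 0.02 over all genes compared.

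*Wee1*, the kinase that holds CDK1 inactive before mitosis, was at 68.6 CPM in the members and 13.3 CPM in the others, 5.15-fold higher (4.08 to 6.56). It was at 140 CPM in ranks 1 to 50, 113 CPM in ranks 51 to 100, and between 16.2 and 24.8 CPM in the 3 bands of ranks 101 to 250. *Nusap1*, a microtubule-bundling protein of the spindle, was at 72.4 and 15.8 CPM (4.59-fold, 3.69 to 5.75). In ranks 1 to 50 it was at 203 CPM, and in ranks 101 to 250 its ratio was 1.02 (0.677 to 1.498). Both genes were highest in the first 100 nuclei, and in ranks 101 to 250 the ratio of *Wee1* was 1.52 (1.04 to 2.19). *Ccnb1*, the cyclin that drives entry into mitosis, was at 32.7 and 9.10 CPM (3.59-fold, 2.65 to 4.89). *Aurka* was at 26.6 and 7.61 CPM, 3.50-fold higher (2.51 to 4.93). *Kif23* was at 98.0 and 29.5 CPM, and *Tpx2*, which activates Aurora A at the spindle, at 104 and 34.1 CPM. Among S-phase genes, *E2f8*, a repressor of the E2F family, had 47 UMIs in the members and 3 in the others, under the minimum of 100 UMIs, and was not compared. *Gmnn*, the inhibitor of origin licensing, was at 30.2 and 7.07 CPM (4.27-fold, 3.06 to 6.03). *Mcm6* was at 56.8 and 21.7 CPM (2.61-fold, 2.12 to 3.22), and at 77.0, 86.6, 39.95, 40.6 and 28.4 CPM in the 5 bands of the members. In ranks 101 to 250 the ratios of *Ccnb1*, *Aurka*, *Kif23* and *Mcm6* were 1.36 (0.837 to 2.16), 1.27 (0.728 to 2.13), 0.965 (0.716 to 1.29) and 1.67 (1.26 to 2.20), of which that of *Mcm6* alone had an interval above 1.

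Further lists grouped cell cycle genes by role, and 5.86% of all genes compared were at least 1.5-fold higher. Among spindle motors and cytokinesis genes 17 of 26 compared were at least 1.5-fold higher, and the pooled ratio was 2.23 in ranks 1 to 100 and 0.988 (0.956 to 1.02) in ranks 101 to 250. Replication origin and fork genes had 18 of 30 higher and ratios of 2.10 and 1.14 (1.09 to 1.18). Kinetochore and checkpoint genes had 10 of 28 higher. The kinetochore genes *Cenpa* and *Bub3* were 2.12-fold and 2.02-fold higher, and *Mad2l1*, a checkpoint protein, was at 33.4 CPM in the members and 36.4 CPM in the others. Condensin and cohesin genes had 5 of 19 higher, led by the condensin subunits *Ncapd2* (2.02-fold), *Ncapg2* (2.01-fold) and *Smc4* (1.995-fold), and the cohesin gene *Stag2* was at 361 and 359 CPM. Fork repair and Fanconi genes had 12 of 28 higher, with *Brca2* at 172 and 76.8 CPM. Cyclin and CDK genes had 6 of 13 higher. *Ccnd3*, a D-type cyclin of G1, was not among them, with 247 CPM in the members and 271 CPM in the others. Its partner *Cdk6* was at 258 and 185 CPM, with ratios of 1.34 (1.20 to 1.49) in ranks 1 to 100 and 1.44 (1.305 to 1.59) in ranks 101 to 250, intervals that overlap. E2F and DREAM genes had 5 of 12 higher, with *Mybl2*, an activator of G2/M genes, at 61.6 and 28.5 CPM. Of the CDK inhibitors and retinoblastoma family 0 of 5 compared were past 1.5-fold in either direction over all members, and *Rb1* was at 469 and 420 CPM. In ranks 1 to 100 alone 2 of 5 were higher and 0 lower, against 10.6% and 13.8% of all genes, counts too small to read. The pooled ratio of this list was 1.21 (1.13 to 1.29) there and 1.06 (0.992 to 1.125) in ranks 101 to 250. *Cdkn1b*, an inhibitor of the G1 kinases, was at 13.3 and 10.1 CPM (1.32-fold, 0.913 to 1.91), and *Cdkn2b*, a further one, had 12 UMIs in the members and 47 in the others, too few to be compared.

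**Figure D2:**
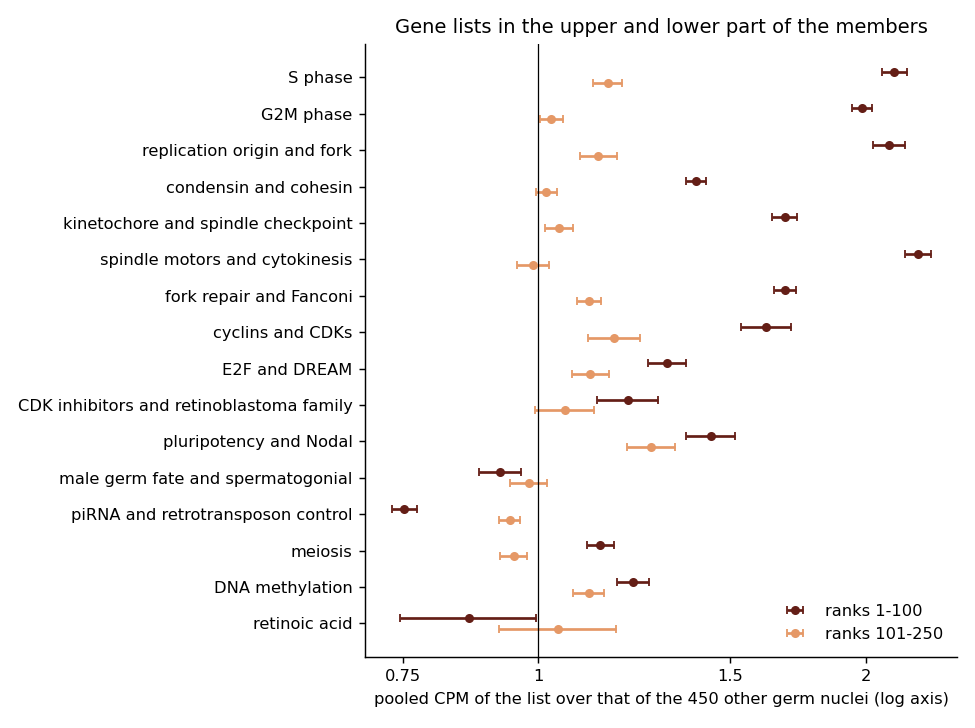
Pooled CPM of 16 gene lists in ranks 1 to 100 (dark) and ranks 101 to 250 (light), each divided by the level in the 450 other germ nuclei (log axis), with 95% intervals that cover counting error only. The S-phase list has ratios of 2.12 and 1.16, the G2/M list 1.98 and 1.03, the pluripotency list 1.44 and 1.27, and the piRNA list 0.753 and 0.941.

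In single nuclei the S-phase and G2/M lists were both high in a set of nuclei mostly of the first 100 ranks. Taking more than 2500 CPM on the S-phase list and more than 5000 on the G2/M list, limits set after the values were seen, 90 of the 700 germ nuclei (12.9%, 10.5 to 15.6%) lay above both. They were all 50 nuclei of ranks 1 to 50, 25 of ranks 51 to 100, 6 of ranks 101 to 250 and 9 of the other germ nuclei. Within ranks 51 to 100 the 25 nuclei above both limits had a median of 20817 UMIs and the other 25 had 10032. The part of this depth in their place was not tested. The G2/M list had a median over nuclei of 8847 CPM in ranks 1 to 50, 5493 in ranks 51 to 100 and between 3661 and 3801 in the bands of ranks 101 to 250. In ranks 251 to 350 it was 3876. The S-phase list was at 4137 and 3672 CPM in the first 100 nuclei, and its upper quartile was higher in ranks 51 to 100 (6828) than in ranks 1 to 50 (6143). Spearman's rho between the lists was 0.559 over the 250 members and 0.141 over the 450 others, and 0.132 within ranks 1 to 100. Nuclei of a library share their depth and free RNA, so these values are descriptions.

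**Figure D3:**
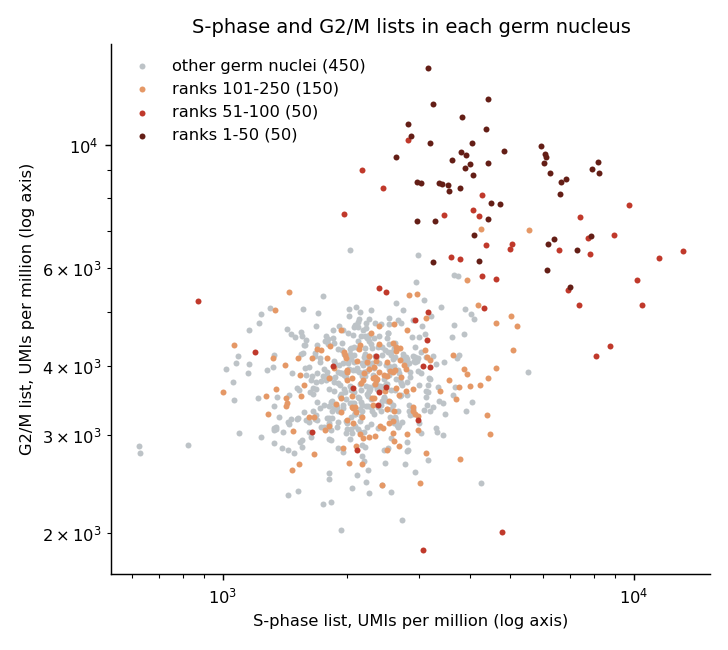
Each point is 1 of 700 germ nuclei, with the CPM of the S-phase list (x, log axis) against that of the G2/M list (y, log axis), both without the ranking genes. All 50 nuclei of ranks 1 to 50 lie above 2500 and 5000 CPM, limits set after the values were seen, and 6 of the 150 nuclei of ranks 101 to 250 do so.

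The ATAC library was not used in the ranking and gave a readout of its own. Nuclei of ranks 1 to 50 had more unique ATAC fragments than the rest, with a median of 9276 per nucleus (8381 to 10259) against 5926 (5619 to 6234) in the other germ nuclei. That is 1.57-fold (1.41 to 1.73, with the median of the other group held fixed), and their UMI median was 1.07-fold that of the others. In ranks 51 to 100 the median was 6611, a ratio of 1.12 (0.856 to 1.40). It was 5545, 5235 and 5463 in the bands of ranks 101 to 250, and these 3 intervals overlapped that of the others. Over ranks 101 to 250 together the ratio was 0.915 (0.809 to 0.998). The higher counts thus stood in the first 50 nuclei. Over all 250 members the median was 5923, a ratio to the others of 0.9995 (0.927 to 1.05). The 90 nuclei above both list limits had a median of 8964 fragments, against 5755 in the other 610 germ nuclei, with UMI medians of 17165 and 14703. Within ranks 51 to 100 the nuclei above both limits had a median of 7520 fragments and the rest 5801, with UMI medians of 20817 and 10032. Within ranks 101 to 250 they had 8141 fragments and the rest 5334, with UMI medians of 20918.5 and 13794. Among the other germ nuclei the 9 above both limits had 5964 fragments and the rest 5921, with UMI medians of 10243 and 15428. The part of depth in these fragment differences was not tested. Spearman's rho between the ranking share and the fragments was 0.308 over the 250 members and -0.06 over the 450 others.

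Fragments outside peaks, which sample the genome more evenly, were also placed differently. In 1 Mb bins of the autosomes, the 20% of bins with the fewest gene starts held 9.83% (9.73 to 9.94%) of the off-peak fragments in ranks 1 to 50. It held 10.97 to 11.2% in the other bands of the members and 11.5 to 11.9% in the bands of the other germ nuclei. The gene-densest 20% of bins held 30.4% in the members and 29.6% in the others. In cycling somatic nuclei the gene-poor and gene-dense shares were 10.7% and 29.3%, and in the 4662 other somatic nuclei 10.9% and 29.3%. The share of fragments at peaks was 31.1% in the members and 30.1% in the others, and the share of short fragments 43.9% and 42.5%. The part of these properties in the placement was not tested.

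**Figure D4:**
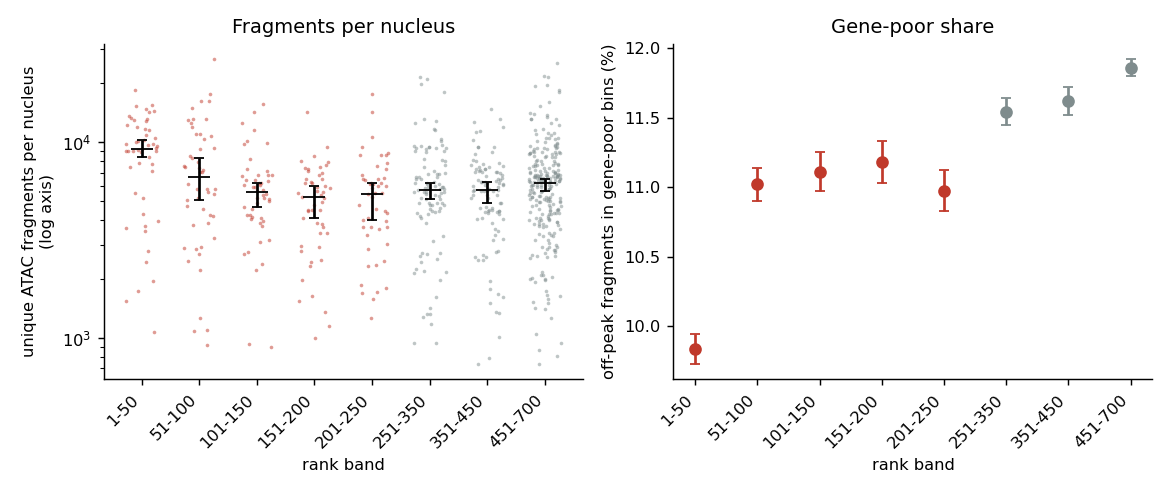
Left, unique ATAC fragments of each nucleus (log axis) in 8 rank bands, with the median and its 95% interval in black, members in red and other germ nuclei in grey. Right, percent of off-peak fragments in the gene-poorest 20% of 1 Mb bins with exact 95% intervals, on an axis that does not start at 0. Ranks 1 to 50 have a median of 9276 fragments and a gene-poor share of 9.83%.

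Cuts at promoters differed less than the RNA of the same genes. Peaks within 1 kb of the starts of the S-phase and G2/M genes together held 6081 CPM of cuts in the members and 5861 in the others, a ratio of 1.04 (1.004 to 1.07). A fragment gives a cut at each end, so intervals of cuts are too narrow. Of 14088 promoters with at least 40 cuts over both groups, 1109 (7.87%) were at least 1.5-fold higher in the members and 1214 (8.62%) at least 1.5-fold lower. Of the 50 G2/M promoters 4 were higher and 2 lower, and of 42 S-phase promoters 1 was higher and 0 lower. These counts are near or below the shares over all promoters, and nothing is read from them. *Anln*, *Bub1* and *Ube2c* below are examples with the higher share in the members, and the 2 lower promoters are not named. The examples thus show a single direction and do not stand for the list. At *Anln*, a cytokinesis scaffold, cuts were read in 44 of 250 members (17.6%, 13.1 to 22.9%) and 52 of 450 others (11.6%, 8.75 to 14.9%), intervals that overlap. At the kinetochore kinase *Bub1* they were read in 28 members (11.2%) and 26 others (5.78%), and at *Ube2c*, printed above, in 34 (13.6%) and 42 (9.33%). The promoters of *Aurka*, *Kif23* and *Mcm6* had ratios of 0.986 (0.695 to 1.39), 1.02 (0.669 to 1.55) and 0.974 (0.702 to 1.34). The upper bound of each of these intervals lay below the RNA ratio of the same gene. These genes were picked for their high RNA ratios, so that order is partly fixed by the choice, and nothing is read from it.

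The list of pluripotency and Nodal-signalling genes had a higher pooled level in the members, also in ranks 101 to 250. Most of its genes that were compared were not past 1.5-fold, and none of those named below is a gene of Nodal signalling. Of the 28 genes of this list 16 had enough UMIs, of which 7 were at least 1.5-fold higher and 0 lower, against 5.86% and 8.54% of all genes compared. This list and the piRNA and meiosis lists below were chosen with earlier results of these data known. Their counts beside the share of all genes are thus a description and no test. The pooled level was 1007 CPM in the members and 748 CPM in the others, a ratio of 1.35 (1.29 to 1.40). It was 1.44 in ranks 1 to 100 and 1.27 (1.21 to 1.34) in ranks 101 to 250. *Esrrb*, an orphan receptor of the pluripotency network, was at 63.8 and 29.8 CPM (2.14-fold, 1.78 to 2.58). Its levels in the 5 bands of the members were 95.2, 70.5, 53.7, 49.0 and 40.6 CPM, and 42.4, 27.8 and 25.6 CPM in those of the others. The level was thus lower from band to band within the members. *Prdm1*, a repressor that specifies germ cells, was at 136 and 81.8 CPM (1.66-fold, 1.47 to 1.87). *Prdm14*, its partner in specification, was at 16.8 and 5.44 CPM on 67 and 40 UMIs, and between 14.9 and 19.3 CPM in every band of the members against 4.68 to 7.68 CPM below them. *Kit*, the receptor for stem cell factor, was at 33.7 and 13.7 CPM, with a ratio of 1.37 (0.930 to 1.99) in ranks 101 to 250, and *Sall4* was at 54.5 and 35.3 CPM. The core factor *Pou5f1* was not past 1.5-fold, with 27.9 and 26.5 CPM, nor was *Dppa4*, with 199 and 195 CPM. *Tet1*, a gene outside this list whose protein oxidises methylated cytosine, was at 469 and 257 CPM (1.83-fold, 1.71 to 1.95). Its levels in the 8 bands were 604, 452, 477, 436, 342, 301, 274 and 232 CPM. After thinning, a *Tet1* UMI was read in 54.0% of the members (47.6 to 60.3%), 38.9% of the others (34.4 to 43.6%) and 11.3% of the cycling somatic nuclei, and unthinned in 93.6%, 85.1% and 42.2%. *Etv5*, of the male fate list, and *Etv1* are ETS factors that respond to growth factor signals. They were 2.09-fold (1.84 to 2.38) and 3.42-fold (2.81 to 4.17) higher, and were 1.90-fold and 2.97-fold higher in ranks 101 to 250. When the nuclei were ranked without *Cenpf*, a setting chosen after the values were seen, these differences were smaller. The list ratio was then 1.15, *Etv5* was 1.27-fold, *Etv1* 2.07-fold, *Prdm14* 1.72-fold and *Tet1* 1.32-fold higher. Ranked by the G2/M list, the list ratio was 1.25, and *Etv5* was 1.69-fold, *Etv1* 1.60-fold, *Prdm1* 1.43-fold and *Tet1* 1.30-fold higher, whereas *Prdm14* had a ratio of 1.38 (0.920 to 2.05) whose interval includes 1.

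The piRNA list was lower in the members. Of its 24 genes 20 were compared, of which 0 were at least 1.5-fold higher and 5 at least 1.5-fold lower. The share of all genes compared that were lower was 8.54%, and for the reason given above this is no test of the list. The pooled ratio was 0.856 (0.840 to 0.872). In ranks 1 to 100 it was 0.753 and in ranks 101 to 250 0.941 (0.920 to 0.962). *Piwil4*, the nuclear Argonaute protein that carries piRNAs to transposon DNA, was at 82.4 CPM in the members and 162 CPM in the others, 1.97-fold lower. Its levels in the 8 bands were 29.9, 89.0, 74.4, 106, 126, 140, 164 and 170 CPM. It was lowest in the first 50 nuclei and highest in the last band. *Tdrd9*, a helicase of the same granules, was at 109 and 253 CPM (2.33-fold lower), and at 31.0 CPM in ranks 1 to 50. *Spocd1*, whose protein links that of *Piwil4* to the methylation machinery, had 55 UMIs in the members and 378 in the others, 3.72-fold lower (2.80 to 5.03), and was at 2.14 CPM in ranks 1 to 50. *Gtsf1*, a cofactor of Argonaute proteins, was 2.03-fold lower. These differences were also smaller in the ranking without *Cenpf*. The list ratio was then 0.882, and those of *Spocd1*, *Tdrd9*, *Gtsf1* and *Piwil4* were 0.681, 0.702, 0.707 and 0.719. Ranked by the G2/M list they were 0.945 for the list and 0.705, 0.706, 0.845 and 0.736 for these genes. *Tex15*, a partner of the nuclear piRNA complex, was at 795 and 1078 CPM, which is short of 1.5-fold. *Rnf17*, *Fkbp6* and *Tdrkh*, which act in piRNA production, had ratios of 0.960, 1.08 and 1.01. After thinning, a *Tdrd9* UMI was read in 16.8% of the members (12.4 to 22.0%), 31.3% of the others (27.1 to 35.8%) and 0.164% of the cycling somatic nuclei, and unthinned in 47.2%, 75.8% and 1.20%. Thinned *Piwil4* was read in 15.2% (10.99 to 20.3%) and 22.4% (18.7 to 26.6%), intervals that overlap, and unthinned in 50.8% and 77.3%. Promoter cuts of this list had a ratio of 0.899 (0.824 to 0.980), and 5 of 21 of its promoters were at least 1.5-fold lower and 0 higher, against 8.62% and 7.87% of all promoters. *Fkbp6* and *Henmt1*, the latter the enzyme that methylates piRNA ends, each had promoter cuts in 13 members (5.20%) and 39 others (8.67%), with cut ratios of 0.503 and 0.559. The RNA of *Fkbp6* was at 263 and 244 CPM, not lower in the members, and that of *Henmt1* at 2.51 and 7.75 CPM on 10 and 57 UMIs.

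Meiosis genes split. Of 25 compared 7 were at least 1.5-fold higher and 4 at least 1.5-fold lower, against 5.86% and 8.54% of all genes compared. The pooled ratio was 1.04 (1.01 to 1.06), with 1.14 (1.11 to 1.17) in ranks 1 to 100 and 0.949 (0.922 to 0.976) in ranks 101 to 250. Under some alternatives the interval over all members included 1. Among them were at most 25000 UMIs (1.006, 0.982 to 1.03) and the omission of nuclei over the Scrublet threshold (1.018, 0.994 to 1.042). *Smc1b*, the meiotic cohesin subunit, was at 224 and 82.8 CPM (2.71-fold, 2.44 to 3.01). It followed the mitotic genes, with 402 and 356 CPM in the first 100 nuclei and 93.7, 89.6 and 103 CPM in the next bands, against 77.8 to 97.9 CPM below rank 250. *Stag3*, a further meiotic cohesin subunit, was at 211 and 136 CPM, and *Tex11*, an X-linked recombination protein, at 325 and 164 CPM. *Hormad1*, a chromosome axis protein, was at 132 and 75.4 CPM, with 212 CPM in ranks 1 to 100 and 67.0 CPM in ranks 101 to 250. *Brdt*, a bromodomain protein of later spermatogenesis, was at 159 and 294 CPM, 1.85-fold lower, and *Mei4*, needed for meiotic breaks, at 164 and 249 CPM. The ratio of *Brdt* was 0.714 when the nuclei were ranked without *Cenpf* and 0.810 when they were ranked by the G2/M list, both short of 1.5-fold. That of *Stag3* was 1.34 when they were ranked on thinned counts and 1.48 by the G2/M list. It was 1.44 with at most 25000 UMIs, 1.34 with the highest 350 nuclei, and 1.47 against the lowest 250. With 500 germ nuclei the ratios of *Stag3* and *Hormad1* were 1.38 and 1.46. *Stra8*, the gatekeeper of meiotic entry, had 10 UMIs in the members and 4 in the others, a level at which it was not compared. Of the male fate list 2 of 11 compared were higher, 1 of them *Etv5*, and 2 were lower, and *Nanos2*, the male fate factor, was at 6.03 and 6.12 CPM on 24 and 45 UMIs. DNA methylation genes had 3 of 13 higher, among them *Dnmt1*, the maintenance methyltransferase, at 42.7 and 20.8 CPM. *Tet3*, which like *Tet1* oxidises methylated cytosine, was lower at 20.1 and 38.5 CPM. *Dnmt3l* of the male fate list, the cofactor of new methylation in germ cells, had 3 UMIs in the members and 30 in the others and was not compared. Of the retinoic acid list 0 of 7 were higher and 1 was lower. The male fate, DNA methylation and retinoic acid counts are of at most 3 genes in a direction, and nothing is read from them against the 5.86% and 8.54% of all genes.

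**Figure D5:**
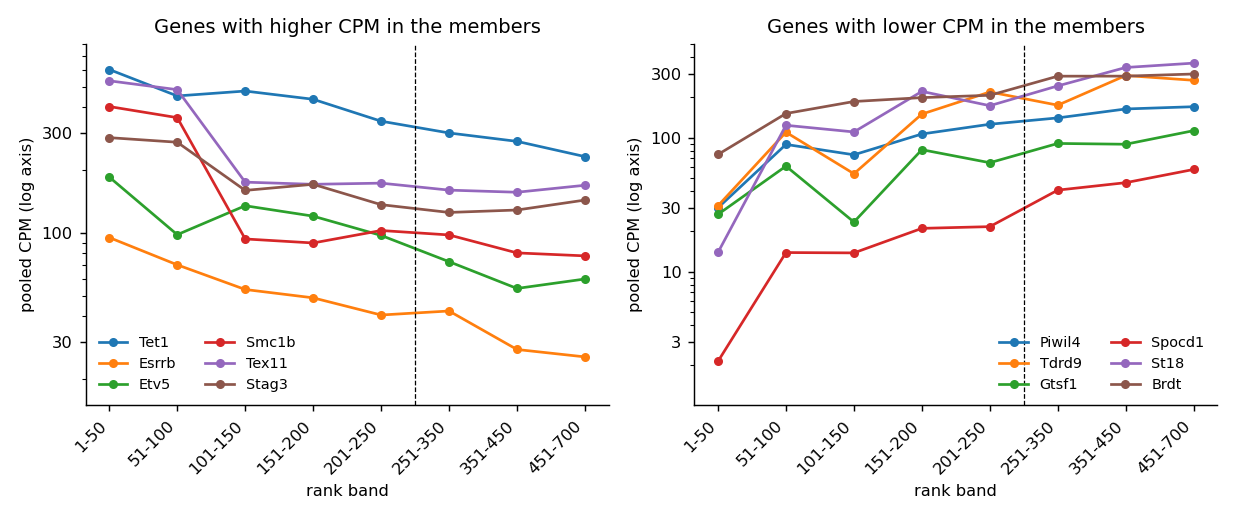
Pooled CPM (log axis) of 12 germ cell genes in 8 rank bands, with the limit of the members as a dashed line. *Smc1b*, *Tex11* and *Stag3* are lower from rank 101 on, *Tet1* and *Esrrb* are lower by smaller steps, and the 6 genes on the right are lowest or near it in ranks 1 to 50, with *St18* at 13.9 CPM there and 360 CPM in ranks 451 to 700.

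Over all genes compared, those with the largest ratios and at least 50 CPM in the higher group included *Gm42047*, *Wee1*, *Nusap1*, *Etv1*, *Kif23*, *Tpx2*, *Pvt1* and *Smc1b*. *Gm42047* was at 148 and 28.7 CPM (5.16-fold, 4.40 to 6.07), and its level went from 339 CPM in ranks 1 to 50 to 39.2 CPM in ranks 201 to 250. *Pvt1*, a long noncoding RNA gene, was at 85.2 and 30.3 CPM (2.81-fold, 2.37 to 3.34). The largest ratios in the other direction included those of *Ncam2*, *Spocd1*, *Tenm2*, *Cntn6*, *Gm15398*, *Ptprq*, *Vwf*, *Gm47782* and *St18*. *St18*, a zinc finger transcription factor, was at 122 and 328 CPM (2.69-fold lower, 2.44 to 2.97), and its ratio was 0.372, or 0.776 when the nuclei were ranked without *Cenpf*. *Ncam2*, an adhesion molecule, was at 12.1 and 53.3 CPM (4.42-fold lower, 3.27 to 6.09) and at 1.07 CPM in ranks 1 to 50. In cycling somatic nuclei *Ptprq*, *Gm15398*, *Gm47782* and *St18* were each between 1.55 and 3.55 CPM, whereas *Tenm2* was at 69.5 CPM there, against 22.9 in the members and 69.8 in the other germ nuclei, and *Cntn6* at 111 CPM, against 23.6 and 70.3.

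Peaks of open chromatin were compared over the same nuclei. Of 16179 peaks with at least 40 cuts, 1825 (11.3%) were at least 1.5-fold higher in the members and 1964 (12.1%) at least 1.5-fold lower, and 441 and 655 passed 2-fold. Of all peaks compared 75.9% lay within 1 kb of a start, against 12 of 71 peaks at least 3-fold higher (16.9%, 9.05 to 27.7%) and 54 of 145 at least 3-fold lower (37.2%, 29.4 to 45.7%). Their median GC content was 52% and 57.5%, against 65.5% over all peaks. Peaks near the limit of 40 cuts can reach a large ratio by counting error, and the part of this in their place was not tested.

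The central 200 bases of 3 of the peaks with the largest ratios are printed to show their base composition, from GRCm38.p6, plus strand, with each CpG in capitals. The peak with the largest ratio toward the members (centre chr6:127337025-127337224) lay 28726 bases from the nearest start, that of *Gm38404*. It held 44 cuts in 21 members and 7 cuts in 5 others. The peak with the largest ratio the other way (centre chr3:9128184-9128383) lay 65876 bases from the start of *4930539M17Rik* and held 1 cut in the members and 42 cuts in 19 others. A further peak lower in the members (centre chr5:139318168-139318367), 6898 bases from *Adap1*, held 4 cuts in 2 members and 51 cuts in 26 others.
Peak higher in members: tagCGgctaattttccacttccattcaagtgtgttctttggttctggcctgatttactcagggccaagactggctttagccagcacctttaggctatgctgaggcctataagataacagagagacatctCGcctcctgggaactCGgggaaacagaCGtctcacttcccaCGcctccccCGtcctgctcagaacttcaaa
First peak lower in members: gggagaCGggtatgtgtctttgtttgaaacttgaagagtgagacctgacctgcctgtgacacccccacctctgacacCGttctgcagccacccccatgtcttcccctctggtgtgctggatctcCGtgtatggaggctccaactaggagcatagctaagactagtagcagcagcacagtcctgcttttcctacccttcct
Second peak lower in members: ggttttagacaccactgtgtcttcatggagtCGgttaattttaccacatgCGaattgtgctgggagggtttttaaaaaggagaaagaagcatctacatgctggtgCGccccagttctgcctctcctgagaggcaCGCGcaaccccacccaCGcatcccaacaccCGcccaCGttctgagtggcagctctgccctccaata

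These stretches held 6, 3 and 8 CpG, against a median of 17 over all peaks compared. Of the 44 cuts in the first of them 30 came from ranks 1 to 100, which held 491109 of the members' 964913 cuts at all peaks. In the third, 0 cuts came from ranks 1 to 100 and 37 of the 51 cuts in the others from ranks 451 to 700. Those ranks held 919336 of the 1596649 cuts of the other germ nuclei at all peaks.

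Members, ranks 101 to 250 included, were last set beside the 1830 cycling somatic nuclei. The groups share only a lower limit on the ranking genes. Median shares of these genes were 1235 CPM in the members, 2991 in ranks 1 to 100 and 2468 in the somatic nuclei. The ratios below are thus not taken at an equal level of them. Of 12213 genes compared 28.8% were at least 1.5-fold higher in the members and 31.2% at least 1.5-fold lower, which is the background between cell types here. The G2/M list was lower in the members (ratio 0.705, 0.695 to 0.715), but in ranks 1 to 100 it was near the somatic level (0.958, 0.941 to 0.975). The somatic nuclei mix several cell types, and 445 of them (24.3%) passed the Scrublet threshold. Without such nuclei in either group the G2/M ratio was 0.600. The S-phase list had a ratio of 1.06 (1.05 to 1.08), with 4732 CPM in ranks 1 to 100, 2579 CPM in ranks 101 to 250 and 3340 CPM in the somatic nuclei. Among the genes used in the ranking *Cenpf* was at 1064 CPM in the members and 291 CPM in the somatic nuclei, and *Neil3*, a DNA repair glycosylase, at 35.9 and 251 CPM. Of 15 cyclin and CDK genes 2 were at least 1.5-fold higher than in the somatic nuclei and 7 lower. Of 7 CDK inhibitors and retinoblastoma family genes 2 were higher and 4 lower. The higher counts are at or below the 28.8% of all genes compared, and the lower counts are above the 31.2%. The higher genes of these lists included *Ccnd3* at 247 and 71.2 CPM (3.47-fold, 3.20 to 3.76), *Cdk6* at 258 and 75.8 CPM (3.40-fold, 3.14 to 3.68) and *Rb1* at 469 and 115 CPM (4.08-fold, 3.84 to 4.33). *Ccnd2* was the D-type cyclin with the reverse pattern, at 15.3 and 61.0 CPM. *Rad51c*, a recombination protein of fork repair, was at 93.2 and 17.8 CPM (5.24-fold, 4.53 to 6.05), and *Mybl2* at 61.6 and 24.3 CPM. Of 29 fork repair genes 8 were at least 1.5-fold higher, near the 28.8% of all genes compared, and 2 were lower. The spindle and cytokinesis genes had 1 of 28 higher and 17 lower, among them *Diaph3*, an actin nucleator, at 473 and 1232 CPM, and *Kif23* at 98.0 and 278 CPM. In ranks 1 to 100 alone the ratio was still 0.495 (0.466 to 0.526) for *Diaph3* and 0.655 (0.584 to 0.732) for *Kif23*.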

How the data were processed

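Reads were processed by the authors with Cell Ranger ARC 2.0.1 against mm10. They deposited its matrix of raw counts, in which gene features hold UMIs and peak features hold transposase cuts, without normalization, and, per the file headers, a list of 58448458 unique fragments with counts of supporting read pairs. Members were found by the rule given above in Python 3.11.15 with numpy 2.4.6, scipy 1.17.1 and pandas 2.3.3. Members and gene lists were chosen with earlier results of these data known. Values were pooled per group and divided by the group's total to give CPM. Intervals at 95% were exact: conditional binomial for ratios, Clopper-Pearson for shares, and order statistics for medians. No p-value was derived, since the nuclei of a library do not replicate a condition. Genes needed 100 UMIs and peaks 40 cuts over both groups, and list medians used log2 with a pseudocount of 1 CPM. Genes named are those of the lists and the 10 largest ratios each way with 50 CPM, some of which are not reported here. Of 439 list genes 438 were in the feature table. Thinning drew 2000 UMIs per nucleus without replacement. Doublets were scored with Scrublet in scanpy 1.11.5, and 1291 of 7492 nuclei passed its threshold. In autosomal 1 Mb bins (2356 used) the gene-dense 20% had at least 20 gene starts and the gene-poor 20% at most 3. Ratios and intervals were tested on simulated pooled counts without variation between nuclei, so that test covers counting error only. Coordinates and sequences are GRCm38, the build of the files. Figures were drawn with matplotlib 3.10.9.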

Additional observations from a re-analysis of the deposited data

How the results depend on the processing

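The values rest on 1 library per assay, so no replicate could be left out, and intervals cover counting error only. No paired analysis was possible because the groups are sets of nuclei of the same library and share no replicate numbers. Depth limits single promoters and peaks most, since most hold under 100 cuts, and genes under 100 UMIs were not compared. Across 20 alternatives, 5 of them chosen after seeing the data, the S-phase and G2/M lists were higher in the members in every one that was run for them, with ratios of 1.16 to 2.12 and 1.03 to 1.98. Each of these alternatives ranked the nuclei by cell cycle genes, so the direction of these lists in them is no test. The ranking by the G2/M list fixes that list's direction outright.

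Of the list ratios, gene counts, fragment, promoter and gene-dense ratios and the somatic comparison, those that moved beyond their interval, or beyond 1.5 times for a count, were these. Ratios are given for the G2/M and the S-phase list in that order unless stated. Without nuclei over the Scrublet threshold they were 1.39 and 1.55, and the G2/M ratio to cycling somatic nuclei was 0.600. With at most 25000 UMIs they were 1.43 and 1.56, and as means of per-nucleus CPM 1.36 and 1.52. When the nuclei were ranked on thinned counts they were 1.42 and 1.41, with 331 genes higher and 522 lower and a gene-dense ratio of 1.02, and 140 of the 250 members stayed members. With the highest 150 nuclei they were 1.73 and 1.87, the fragment ratio 1.17 and the promoter ratio 1.07, and with the highest 350 they were 1.35 and 1.49. Against the lowest 250 the S-phase ratio was 1.655 and the gene-dense ratio 1.03. With 500 germ nuclei they were 1.295 and 1.46, with 311 genes higher, 387 lower and a gene-dense ratio of 1.02. Ranked by the G2/M list they were 1.705 and 1.54, with 326 genes higher, 480 lower, a fragment ratio of 1.06 and a gene-dense ratio of 1.01. Ranked without *Cenpf* the S-phase ratio was 1.55, with 344 genes higher, 225 lower, a fragment ratio of 1.08 and a gene-dense ratio of 1.02. With no minimum 1640 genes were higher and 2661 lower, and with at least 400 UMIs 197 and 271. Ranks 1 to 100 against the 450 gave 1.98 and 2.12, 936 genes higher, 1218 lower, a fragment ratio of 1.41 and a ratio of 0.958 to cycling somatic nuclei. Against all 600 below them they gave 1.97 and 2.05, 937 genes higher, 1266 lower and a fragment ratio of 1.45. Ranks 101 to 250 gave 1.03 and 1.16, 241 genes higher, a fragment ratio of 0.915 and a promoter ratio of 1.002. In these same ranks the meiosis list (0.949), *Hormad1* (0.888) and *Ccnd3* (1.02) turned direction, as did *Ccnd3* with 500 germ nuclei (1.05). The cause of these moves was not tested. For the 30 named lists and genes followed, 286 of 480 values under an alternative lay within the interval of the reported one, 190 lay outside it in the same direction and these 4 turned. The others kept their direction, with ratios of 0.753 to 0.945 for the piRNA list, 1.15 to 1.45 for the pluripotency list, 0.267 to 0.706 for *Tdrd9* and 1.30 to 2.07 for *Tet1*.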
